A study of Mus musculus with 16 samples.

Results

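The Fc receptor chains are the proteins through which macrophages and other myeloid cells bind the constant part of antibodies. Their RNA was followed here for 6 genes, Fcgr1, Fcgr3, Fcgr4, Fcer1g, Fcgr2b and Fcgrt, which were picked by their symbol in the scanner files out of 31044 gene names with a probe on the array. Each of the 6 had 1 probe, and each probe was well above background on 16 of 16 arrays, so all 6 passed the filter on dim probes, as did 24275 genes in all.

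The samples were macrophages sorted by flow cytometry into lysis buffer from pancreatic tumors or from normal pancreas, as YFP+ and YFP- cells. Tumors gave 5 arrays of YFP+ and 5 of YFP- cells, normal pancreas gave 3 of each, and the 16 arrays lay on 4 slides of 4. Per the labels, the mice of all 4 groups were C57/B6 females aged 8 to 10 weeks, with the genotype not provided. The treatment text says of every sample that the animals carried implanted tumors, also of the normal pancreas samples, while the series text names wild-type, KPC and FLT3-CRE/LSL-YFP mice without tying a sample to any of them. In the last of these, Cre under Flt3 control switches on YFP in cells that descend from Flt3-expressing blood progenitors, so YFP marks descent and not the present state of a cell. Nothing in the labels says that each sample came from a separate animal or how many animals were pooled, so p-values measure the spread between these samples, which may be technical.

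Activating and inhibitory Fc gamma receptors are usually found on the same macrophage and bind the same immune complexes, and the balance between them sets how strongly a cell answers to antibody. Fcgr1 (the high-affinity IgG receptor), Fcgr3 and Fcgr4 are ligand-binding chains of the activating kind. They signal through Fcer1g, the common gamma chain, whose tyrosine motif (ITAM) recruits the kinase Syk. Fcgr2b is the inhibitory receptor, whose own motif (ITIM) recruits the phosphatase Inpp5d. Fcgrt encodes the heavy chain of the neonatal Fc receptor, an intracellular receptor that pairs with B2m and returns IgG and albumin to the surface instead of letting them be degraded.

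Fcgr2b, Fcgr4, Fcgr3 and Fcer1g are neighbours on mouse chromosome 1, while Fcgr1 lies on chromosome 3 and Fcgrt on chromosome 7. The promoters of the first 3 neighbours are shown because, of these adjacent genes, Fcgr4 alone passed the test between tissues in the comparisons given further on. Each runs from 250 bases before to 50 bases after the start of the gene in RefSeq, on build GRCm38.p6 and on the gene's own strand. Capitals mark the letters that matched a searched motif. Fcgr4 is at chr1:171018676-171018975 (plus strand), Fcgr2b at chr1:170976022-170976321 (minus) and Fcgr3 at chr1:171059354-171059653 (minus).
Fcgr4: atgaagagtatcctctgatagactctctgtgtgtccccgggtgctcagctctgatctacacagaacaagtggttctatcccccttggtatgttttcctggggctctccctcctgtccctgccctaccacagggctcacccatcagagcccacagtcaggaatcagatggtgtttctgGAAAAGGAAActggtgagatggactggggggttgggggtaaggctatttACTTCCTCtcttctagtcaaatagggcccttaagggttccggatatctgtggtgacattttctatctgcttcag
Fcgr2b: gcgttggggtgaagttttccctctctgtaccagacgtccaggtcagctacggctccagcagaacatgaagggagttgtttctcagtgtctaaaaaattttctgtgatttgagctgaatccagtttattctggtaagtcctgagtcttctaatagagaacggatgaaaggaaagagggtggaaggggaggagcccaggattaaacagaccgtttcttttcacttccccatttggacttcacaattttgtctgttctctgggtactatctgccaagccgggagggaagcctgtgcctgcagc
Fcgr3: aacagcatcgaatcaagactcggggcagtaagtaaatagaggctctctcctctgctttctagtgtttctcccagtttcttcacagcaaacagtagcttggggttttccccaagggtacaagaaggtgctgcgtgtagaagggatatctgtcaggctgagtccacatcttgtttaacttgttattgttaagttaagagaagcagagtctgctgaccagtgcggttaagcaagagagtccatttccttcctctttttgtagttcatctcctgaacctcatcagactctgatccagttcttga
The motifs searched, on both strands, were GAGGAAGT, a form bound by the myeloid ETS factor PU.1, TTCNNNGAA, the palindrome of STAT factors, and GAAA followed by any 2 bases and another GAAA, a form of the interferon response element. The Fcgr4 promoter held the interferon response form at -73 and GAGGAAGT, on the opposite strand, at -24, counted from the gene start, and the matches do not overlap. The Fcgr1 promoter held TTCNNNGAA at -109, and none of these letters was found in the windows of Fcgr2b, Fcgr3, Fcer1g and Fcgrt. Over 32851 mouse promoters of the same length, 3.20% held GAGGAAGT, 8.30% held TTCNNNGAA and 3.44% held the interferon response form. These matches describe the sequence only.

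The levels come from 60-base probes, which the file headers place on build mm9. The Fcgr2b probe lies at chr1:172890988-172891047, the Fcgr3 probe at chr1:172984129-172984188, the Fcer1g probe at chr1:173159794-173159853, the Fcgr1 probe at chr3:96086839-96086898 and the Fcgrt probe at chr7:52350556-52350615, all on the minus strand. The Fcgr4 probe is listed as unmapped, with no position. Exon and UTR annotation on that build was not used here. The probes of Fcgr3 and Fcgrt are shown because the value of each gene rests on this stretch alone.
Fcgr3 probe: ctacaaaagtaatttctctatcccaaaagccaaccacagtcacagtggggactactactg
Fcgrt probe: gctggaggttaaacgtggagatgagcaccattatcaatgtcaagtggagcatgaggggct
Fcgr3 and Fcgr2b have nearly identical extracellular parts, so a probe there could take up RNA of both. The longest run of bases shared by any pair of the 6 probes was 8, and no other probe of the array shared 20 bases with one of them. These runs compare probes with probes and not with transcripts, so they cannot show whether the Fcgr3 probe takes up Fcgr2b RNA. Cross-hybridisation of the Fcgr3 probe with Fcgr2b RNA was not tested.

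The libraries carried the RNA of macrophages and also that of other cells. All 11 macrophage markers were well above background on every array, and their summed signal, as log2 relative to the array's 75th percentile, was 7.38 to 8.10 in tumor and 7.47 to 8.50 in normal samples. Acinar cell markers summed to 7.86 to 9.50 in normal and 1.62 to 3.39 in tumor samples. Mast cell and basophil markers summed to 4.07 to 6.02 in YFP- cells of tumors, to 1.69 to 2.90 in their YFP+ cells and to 0.32 to 2.50 in normal samples. For fibroblast markers the sums were 5.87 to 6.63 and 2.10 to 3.12 in these tumor cells and 3.46 to 4.11 in normal YFP+ samples. In normal YFP- samples they were 2.85 in 23912, 5.26 in 23916 and 6.12 in 23917. B and plasma cell markers summed to 5.13 to 5.84 in tumor YFP+, to 3.21 to 4.36 in tumor YFP- and to 2.68 to 3.47 in normal samples. NK and T cell markers summed to 5.51 in normal YFP+ sample 23912, against 3.17 and 3.27 in the others of that group. Samples numbered 23912 (both normal populations) and 23550 (both tumor populations) had the lowest macrophage sums of their groups, at 7.66 and 7.47 against 8.19 to 8.50 in the other normal samples, and at 7.51 and 7.38 against 7.86 to 8.10 in the other tumor samples. In sorted bulk samples, fewer cells of a type and less RNA per cell cannot be told apart.

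**Figure D1:**
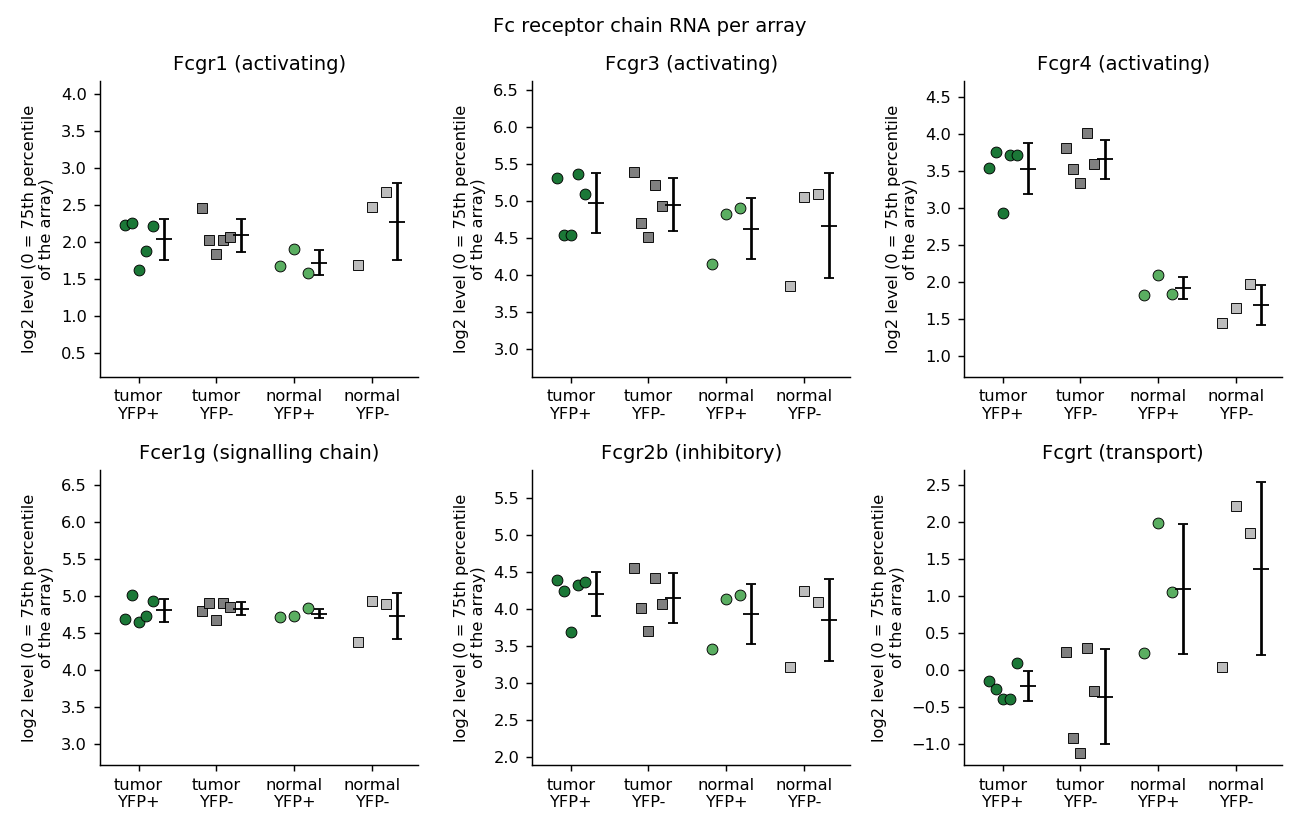
Level of each Fc receptor chain on each of the 16 arrays, as log2 relative to the array's 75th percentile (vertical axes, all of equal span), in the 4 groups (horizontal axes). Points are arrays, and the bars beside them give the mean and SD; Fcgr4 sits between 2.93 and 4.01 in all 10 tumor samples and between 1.44 and 2.09 in all 6 normal samples.

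Fcgr4, an activating receptor for IgG, rose in tumor against normal macrophages, in both the YFP+ and the YFP- population, and was the only one of the 3 ligand-binding activating chains to pass the test. Fcgr4 levels are given as log2 relative to the 75th percentile of the array, where 0 is that percentile. In tumor YFP+ samples the Fcgr4 level was 2.93 in 23550, 3.54 in 23547, 3.71 in 23551, 3.72 in 23677 and 3.75 in 23548. In tumor YFP- samples it was 3.33 in 23550, 3.53 in 23548, 3.59 in 23677, 3.81 in 23547 and 4.01 in 23551. In normal YFP+ samples it was 1.82 in 23912, 1.84 in 23917 and 2.09 in 23916, and in normal YFP- samples 1.44 in 23912, 1.65 in 23916 and 1.97 in 23917. The lowest tumor sample lay above the highest normal sample, so the tissues did not overlap in either population. Within each tissue the YFP+ and YFP- values overlapped.

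Between tissues, Fcgr4 was 3.06-fold higher in tumor than in normal YFP+ macrophages (log2 difference 1.61 ± 0.22 SE, 95% interval 1.15 to 2.08, n = 5 and 3). The limma fit over all 24275 genes, with Benjamini-Hochberg adjustment, gave an adjusted p of 0.000191. In the YFP- population Fcgr4 was 3.92-fold higher in tumors (log2 difference 1.97 ± 0.22, 95% interval 1.51 to 2.43, limma adjusted p = 2.73e-05, n = 5 and 3). Of all genes tested, 6.03% were called higher in tumor YFP+ macrophages and 8.04% higher in tumor YFP- macrophages at the same threshold, an adjusted p under 0.05. Without overlap and higher were 10.1% and 9.78% of genes. The Fcgr4 differences were larger in size than those of 93.2% of genes in the YFP+ and 94.3% in the YFP- comparison. Whether the rise differed between YFP+ and YFP- cells was tested as an interaction, which gave -0.36 ± 0.31 (95% interval -1.01 to 0.30, limma adjusted p = 0.922).

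On the 3 slides per population that held both tissues, the Fcgr4 within-slide difference was 1.09 to 1.90 in YFP+ and 1.56 to 2.16 in YFP- cells. Without both samples numbered 23912 it was 1.56 and 1.85, and without both numbered 23550 it was 1.76 and 2.05, and Fcgr4 passed the limma threshold each time. Neutrophils also carry Fcgr4. Of 9 neutrophil markers tested, 4 were higher in tumor YFP+ than in normal YFP+ and 5 higher in tumor YFP- than in normal YFP- samples. Their summed log2 signal was 5.07 to 5.52 in tumor YFP+ against 4.93 to 5.56 in normal YFP+ samples, which overlap, and 5.60 to 6.21 against 5.05 to 5.52 in the YFP- samples. S100a8, which encodes an abundant neutrophil protein, stood at log2 -0.35 ± 0.48 (SD, n = 5) for YFP+ cells and 0.81 ± 0.70 (n = 5) for YFP- cells of tumors, and was above background in 2 of 3 normal YFP+ and 1 of 3 normal YFP- samples. In tumor YFP+ against normal YFP+ samples, the means of Mpo (0.57 against 2.23), Elane (-3.59 against -0.96) and Csf3r (4.68 against 4.87) were lower. Those of the rest of the list were higher there. Csf3r was the brightest of these markers in every group, with means of 4.68 to 5.06, and weighs most in the sums. The part of neutrophil RNA in the Fcgr4 values was not tested.

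The other ligand-binding chains of the activating kind did not pass the test between tissues. Fcgr1, the high-affinity receptor, had levels of 1.62, 1.87, 2.21, 2.22 and 2.25 in tumor YFP+ and of 1.84, 2.03, 2.03, 2.07 and 2.46 in tumor YFP- samples, both in rising order. In normal YFP+ samples the Fcgr1 level was 1.58, 1.67 and 1.90, and in normal YFP- samples 1.68, 2.47 and 2.67. The normal YFP- samples thus held the 2 highest Fcgr1 values of all 16 arrays, and each group's range overlapped with that of another. Fcgr1 differed by 0.32 ± 0.23 between tumor and normal YFP+ samples (95% interval -0.17 to 0.81, limma adjusted p = 0.464). Between the YFP- samples the difference was -0.19 ± 0.23 (95% interval -0.68 to 0.31).

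Fcgr3, the low-affinity activating receptor, was among the brighter probes of the arrays in every group. Its level was 4.54, 4.54, 5.10, 5.31 and 5.37 in tumor YFP+ samples and 4.51, 4.71, 4.93, 5.22 and 5.40 in tumor YFP- samples, in rising order. In normal YFP+ samples it was 4.15, 4.83 and 4.91, and in normal YFP- samples 3.85, 5.06 and 5.10. The lowest value in each normal group was that of sample 23912, and the others fell inside the tumor range. Fcgr3 differed between tissues by 0.34 ± 0.33 in YFP+ cells (95% interval -0.36 to 1.04, limma adjusted p = 0.610) and by 0.28 ± 0.33 in YFP- cells (95% interval -0.42 to 0.98).

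Fcer1g, the signalling chain that the activating receptors share, varied least of the 6 genes. In YFP+ cells its mean was 4.80 ± 0.16 (SD, n = 5) for tumors and 4.76 ± 0.06 (n = 3) for normal pancreas. In YFP- cells it was 4.83 ± 0.09 (n = 5) for tumors and 4.73 ± 0.31 (n = 3) for normal pancreas. Over all 16 arrays it lay between 4.37 and 5.01, the lowest being normal YFP- sample 23912. The tissue difference was 0.04 ± 0.16 in YFP+ cells (95% interval -0.30 to 0.38) and 0.10 ± 0.16 in YFP- cells (95% interval -0.24 to 0.43). A change of more than about 1.35-fold upwards lies outside both intervals of this main fit, and other settings can move that bound. Over the alternatives that kept all samples and slides, the Fcer1g difference ran from -0.26 to 0.17 in YFP+ and from -0.06 to 0.29 in YFP- cells.

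Fcgr2b, the inhibitory receptor, likewise did not pass. In tumor YFP+ samples the Fcgr2b level was 3.69 in 23550 and 4.24, 4.33, 4.36 and 4.40 in the others, and in tumor YFP- samples it was 3.71 in 23550 and 4.01, 4.07, 4.42 and 4.55 in the others. In normal YFP+ samples it was 3.46 in 23912, 4.14 in 23916 and 4.19 in 23917. In normal YFP- samples it was 3.22 in 23912, 4.09 in 23917 and 4.24 in 23916. The low samples of Fcgr2b were the ones with the lowest macrophage marker sums, in both populations, and that relation was not tested. The part of B, plasma or mast cell RNA in the Fcgr2b values was not tested either. This probe is printed 10 times on each array, and the SD over its spots was 0.04 to 0.09 on the log2 scale, below the SD between samples of 0.29 to 0.55. The tissue difference of Fcgr2b was 0.27 ± 0.28 in YFP+ (95% interval -0.32 to 0.87, limma adjusted p = 0.636) and 0.30 ± 0.28 in YFP- cells (95% interval -0.29 to 0.89).

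Fcgrt, the neonatal Fc receptor chain, fell in tumor against normal macrophages of the YFP- population, and did not pass the test in YFP+ cells. Its level in tumor YFP- samples was -1.12 in 23550, -0.92 in 23548, -0.29 in 23677, 0.24 in 23547 and 0.29 in 23551, against 0.04 in 23912, 1.85 in 23917 and 2.22 in 23916 of normal YFP- samples. These groups overlapped, because normal sample 23912 lay below 2 of the tumor samples. In YFP+ cells the Fcgrt level was -0.40, -0.39, -0.26, -0.15 and 0.09 in tumor and 0.23 (23912), 1.05 (23917) and 1.99 (23916) in normal samples, with no overlap. Of all genes, 11.8% were lower in tumor YFP+ cells with no overlap.

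Fcgrt fell by 1.73 on the log2 scale in tumor YFP- macrophages (SE 0.49, 95% interval -2.78 to -0.68, limma adjusted p = 0.0267, n = 5 and 3), which is 3.31-fold. At this threshold 7.74% of genes were called lower. In YFP+ cells the difference was -1.31 ± 0.49 (95% interval -2.36 to -0.27) with a limma adjusted p of 0.104, and 6.06% of genes were called lower there. The interaction was 0.42 ± 0.69 (95% interval -1.06 to 1.90, limma adjusted p = 0.949), so the populations were not shown to differ. The call in YFP- cells depended on single samples and on the setting. Leaving out tumor sample 23548 or 23550, or normal sample 23916 or 23917, of the YFP- groups ended it, as did scaling by the median (-1.53, limma adjusted p = 0.0634) and a fit of the 2 groups alone (limma adjusted p = 0.0917). Without both samples numbered 23912, Fcgrt fell by 2.39 in YFP- cells and by 1.74 in YFP+ cells, and both passed (limma adjusted p = 0.00113 and 0.0116). Without both samples numbered 23550 the difference was -1.54 in YFP- cells (limma adjusted p = 0.0747). With the populations averaged and the sample number as a random block, Fcgrt fell by 1.52 ± 0.35 (limma adjusted p = 0.00487) and Fcgr4 was higher by 1.79 ± 0.15 (limma adjusted p = 1.21e-06). Within slides the Fcgrt difference ranged from -2.25 to -0.14 in YFP+ and from -2.76 to -0.33 in YFP- cells. Endothelial and epithelial cells also make Fcgrt. Of 9 acinar markers 8 were lower in tumors in each population, 4 and 8 of 9 ductal and tumor epithelium markers were higher in YFP+ and YFP- cells, and of 10 endothelial markers none was lower and 1 was higher in each. The part of these cells' RNA in the Fcgrt values was not tested.

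**Figure D2:**
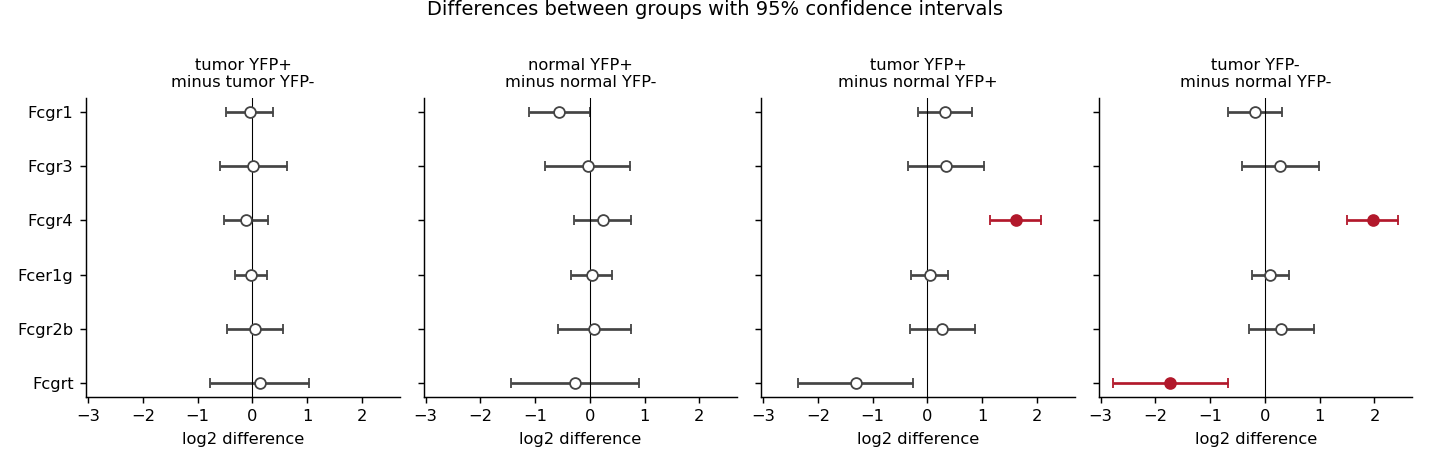
Log2 difference of each Fc receptor chain (horizontal axis) between YFP+ and YFP- cells in each tissue and between tissues in each population, with the 95% confidence interval of the limma fit. Filled red points have an adjusted p under 0.05: Fcgr4 in both tissue comparisons (1.61 and 1.97) and Fcgrt in the YFP- comparison (-1.73); all other intervals but 2 include 0.

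None of the 6 chains passed the test between YFP+ and YFP- macrophages of the same tissue. In tumors, 0 of 6 passed the limma threshold, while 2.39% of all genes were called. An unadjusted p under 0.05 was found for 0 of 6, against 10.3% of all genes. The tumor difference, YFP+ minus YFP-, was -0.05 ± 0.20 for Fcgr1, 0.02 ± 0.28 for Fcgr3 and -0.13 ± 0.19 for Fcgr4 (95% interval -0.53 to 0.28). It was -0.03 ± 0.14 for Fcer1g (95% interval -0.32 to 0.27), 0.05 ± 0.24 for Fcgr2b and 0.14 ± 0.42 for Fcgrt (95% interval -0.77 to 1.04). The smallest adjusted p among them was 0.906, for Fcgr4. The median over the 6 was 0.00 against 0.01 over all genes. The SEs and intervals given here treat samples of the same number as unpaired.

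In normal pancreas, 0 of 6 passed by limma, while 0.0206% of all genes were called. Fcgr1 was the 1 of 6 with an unadjusted p under 0.05, which 7.64% of all genes had. The normal difference of Fcgr1, YFP+ minus YFP-, was -0.56 ± 0.26 (95% interval -1.11 to -0.01, limma adjusted p = 0.646). By sample number, Fcgr1 was lower in the YFP+ than in the YFP- sample by little in 23912 (-0.02) and by more in 23916 (-0.57) and 23917 (-1.09). The other 5 chains had normal differences from -0.28 (Fcgrt, 95% interval -1.45 to 0.89) to 0.23 (Fcgr4, 95% interval -0.29 to 0.75). With array weights Fcgr1 was called lower, at -0.70 (limma adjusted p = 0.0474). For the interaction, 0 of 6 passed, against 0.103% of all genes called, and 0 had an unadjusted p under 0.05, against 5.97% of all genes. The largest interaction in size was that of Fcgr1, 0.50 ± 0.33 (limma adjusted p = 0.918).

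Read as pairs of receptors, the distance between activating and inhibitory chains within an array changed with the tissue for Fcgr4 and little for Fcgr3. The value is the log2 level of the activating chain minus that of Fcgr2b on the same array. Its sign has no meaning, since the probes differ in efficiency, and only its change between groups can be read. Fcgr4 minus Fcgr2b was -0.68 ± 0.14 (SD, n = 5) in tumors and -2.01 ± 0.36 (n = 3) in normal pancreas for YFP+ cells. For YFP- cells it was -0.50 ± 0.14 (n = 5) in tumors and -2.17 ± 0.41 (n = 3) in normal pancreas. It ran from -0.86 to -0.38 over the tumor samples and from -2.60 to -1.64 over the normal samples, with no overlap. The shift from normal to tumor was 1.34 in YFP+ and 1.67 in YFP- cells.

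Fcgr3 minus Fcgr2b shifted by 0.07 and -0.02 between tissues, and its group means ran from 0.70 to 0.82. Uptake of Fcgr2b RNA by the Fcgr3 probe would make such a shift smaller, and it was not tested. Fcgr1 minus Fcgr2b shifted by 0.05 in YFP+ and by -0.49 in YFP- cells, where the normal YFP- samples stood at -1.58 ± 0.18 (SD, n = 3) and the other groups between -2.22 and -2.06. These distances combine values already given, and no test was run on them.

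**Figure D3:**
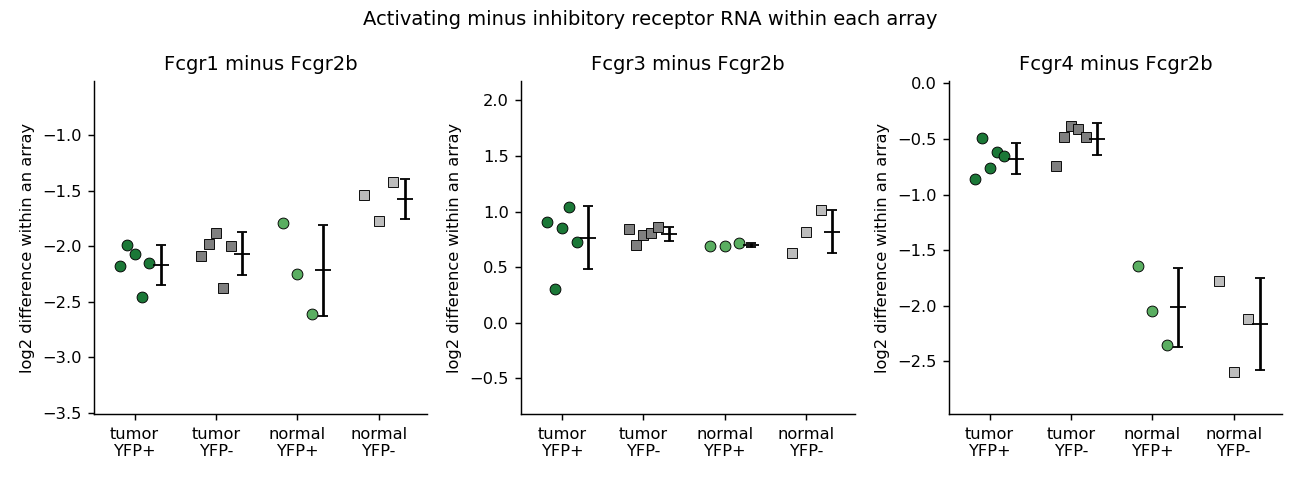
Log2 level of Fcgr1, Fcgr3 and Fcgr4 minus that of Fcgr2b on the same array (vertical axes, all of equal span), by group. Points are arrays and bars the mean and SD; for Fcgr4 the tumor samples lie between -0.86 and -0.38 and the normal samples between -2.60 and -1.64, while for Fcgr3 all groups overlap.

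Across the 16 arrays Fcgr3 and Fcgr2b moved together more than any other pair of the 6. Their Pearson correlation was 0.926 over all arrays and 0.922 after each group's mean was taken off. Fcgr3 was in turn the gene with the third highest correlation to Fcgr2b of all 24275, after Cndp2 (0.954) and Akr1a1 (0.945), and Fcgr2b was first for Fcgr3, ahead of the transcript listed as ENSMUST00000055957 (0.900) and Trf (0.891). Arrays of 1 sample number, slides and the amount of macrophage RNA are shared by these genes, and the correlations are descriptions. Whether the Fcgr3 probe also took up Fcgr2b RNA, which would raise their correlation, was not tested.

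Fcgr4 and Fcgrt ran opposite over all arrays (r = -0.638) but in the same direction within groups (r = 0.598), since the first value holds the difference between tissues. The genes most like Fcgr4 over the 16 arrays were Sgk1 (0.985), Msrb1 (0.985) and Trem3 (0.982), with 0.81, 0.84 and 0.75 within groups. Those most like Fcgr1 were Ccl12 (0.920), which encodes a monocyte chemokine, Phyhd1 (0.883) and Bcl2l1 (0.844). Those most like Fcer1g were Tgfbi (0.905), Epn1 (0.868) and Pltp (0.865). For Fcgrt they were 2610507B11Rik (0.962), Snx8 (0.951) and Ednrb (0.951).

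**Figure D4:**
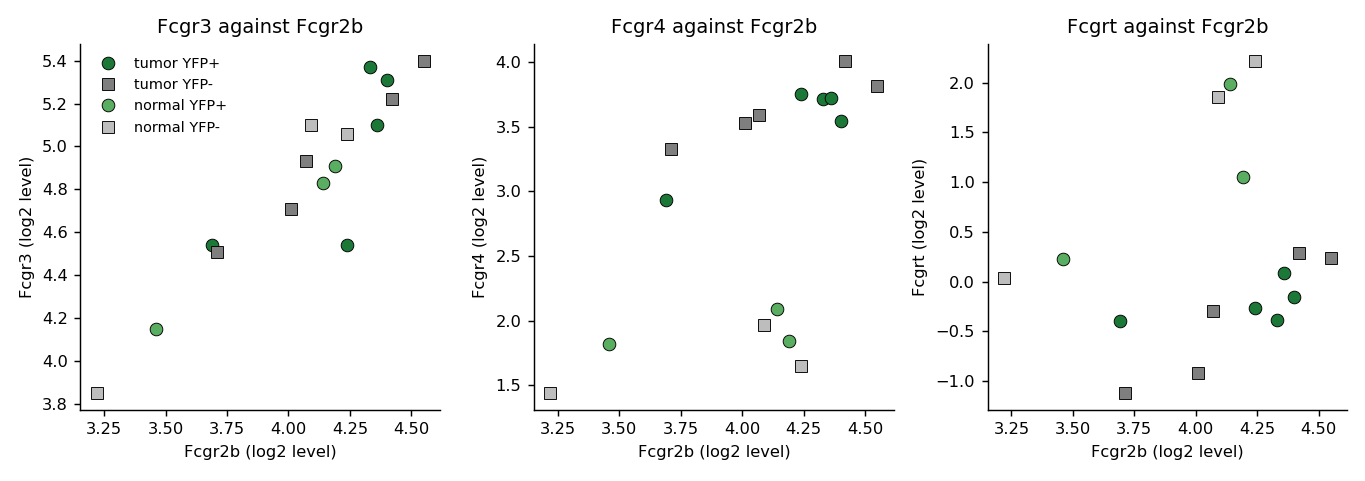
Level of Fcgr3, Fcgr4 and Fcgrt (vertical axes) against that of Fcgr2b (horizontal axes) on each of the 16 arrays, both as log2 relative to the array's 75th percentile. Fcgr3 follows Fcgr2b in all groups, whereas the tumor samples lie above the normal ones for Fcgr4 at like Fcgr2b levels and below most of them for Fcgrt.

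The other Fc receptors on the array were led by genes of single cell types. Of 14 listed, 12 could be tested. Between the tumor populations 1 was higher and 1 lower in YFP+ cells, at a background of 2.39% of genes called, and the median difference over the list was 0.30 against 0.01 over all genes. Fcer1a, the IgE-binding chain of the high-affinity receptor that uses Fcer1g, was above background in 5 of 5 tumor YFP- samples, in 1 of 5 tumor YFP+ and in 0 of 6 normal samples. It was at least 21.5-fold higher in tumor YFP- than in normal YFP- samples (limma adjusted p = 0.000239), a bound set by the lowest signal above background. All 9 tested mast cell and basophil markers, Fcer1a among them, were higher in that same comparison, and their part in this result was not tested. Fcrla, a B cell gene, was above background in 5 of 5 tumor YFP+, 2 of 5 tumor YFP- and 0 of 3 normal YFP+ samples, and was at least 7.48-fold higher in tumor than in normal YFP+ samples (limma adjusted p = 0.000515). Of 10 B and plasma cell markers 5 were higher and none lower in that comparison.

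Between tissues, 3 of these 12 were higher and 1 lower in YFP+ cells, and 1 was higher and 2 lower in YFP- cells. Of all genes, 6.03% were called higher and 6.06% lower in the first comparison, and 8.04% and 7.74% in the second. The median list difference was 0.18 in YFP+ and -0.17 in YFP- cells, against -0.04 and -0.16 over all genes. Fcrls, an Fc receptor-like gene of tissue macrophages, fell in both, by 2.37 ± 0.29 in YFP+ cells and by 1.99 ± 0.29 in YFP- cells (limma adjusted p = 9.94e-05 and 0.000340). Pigr, which carries polymeric antibody across epithelia, rose by 0.60 ± 0.15 and Fcrlb by 1.04 ± 0.25 in tumor YFP+ cells. Trim21, a cytosolic antibody receptor, fell by 1.86 on the log2 scale in tumor YFP- cells. B2m, the partner of Fcgrt, differed by -0.18 ± 0.17 in YFP+ and -0.17 ± 0.17 in YFP- cells and did not pass (limma adjusted p = 0.584 and 0.519).

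Receptors that pair with the Fcer1g chain moved in both directions between tissues, while Fcer1g itself did not pass. All 10 listed were tested, and 5 were higher and 2 lower in tumor YFP+ cells, at a background of 12.1% of genes called in either direction. The counts in tumor YFP- cells were 5 higher and 2 lower as well, at a background of 15.8%. The median differences were 0.36 and 0.46. Clec4e (Mincle), a lectin receptor for damaged cells and fungi, was higher by 3.51 ± 0.43 in tumor YFP+ cells (limma adjusted p = 9.59e-05) and by 5.09 ± 0.43 in tumor YFP- cells, where 2 of 3 normal samples were above background. Clec4n (Dectin-2), a lectin receptor for fungal mannans, rose by 3.39 ± 0.42 and 2.66 ± 0.42, from levels of 0.17 and 0.88 in normal to 3.56 and 3.54 in tumor samples. Clec4d rose by 2.27 ± 0.43 and 3.10 ± 0.43, and Clec4b1 by 0.66 ± 0.17 and 1.04 ± 0.17.

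Tarm1, an activating receptor of myeloid cells, was higher by 3.30 ± 0.76 in tumor YFP+ and by 5.74 ± 0.76 in tumor YFP- cells, where only 1 of 3 normal samples was above background. Clec4a1 went the other way and fell by 2.32 on the log2 scale in YFP+ and by 2.06 in YFP- cells. Pira2 fell by 0.87 in tumor YFP+ cells, and Gp6, the platelet collagen receptor, fell by 1.89 in tumor YFP- cells. Between YFP+ and YFP- cells 0 of 10 passed in tumors and 0 of 10 in normal pancreas by limma, with 1 and 4 at an unadjusted p under 0.05.

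Of 31 listed signalling genes under the activating receptors, 30 were tested, and 1 was higher and 1 lower in tumor than in normal YFP+ cells, at a background of 12.1% of genes called. In YFP- cells 4 were higher and 1 lower, at a background of 15.8%, which is near the share of the list. The median differences were -0.01 and 0.05. The kinase Src rose from -1.46 ± 0.50 (SD, n = 3) to 2.11 ± 0.07 (n = 5) in YFP+ cells and from -0.86 ± 0.52 (n = 3) to 1.70 ± 0.25 (n = 5) in YFP- cells (limma adjusted p = 3.66e-07 and 8.00e-06). The adaptor Blnk fell by 0.84 in tumor YFP+ and by 1.46 in tumor YFP- cells, and was higher in YFP+ than in YFP- cells of tumors by 0.82 ± 0.15 (limma adjusted p = 0.00629), the 1 gene of this list called there. Blnk is also a B cell gene, and 2 of 10 B and plasma cell markers were higher in the tumor YFP+ than in the tumor YFP- samples, while none was lower. The kinase Fgr rose by 1.85 ± 0.35, the GTPase Rac2 by 0.66 ± 0.16 and the regulatory kinase subunit Pik3r1 by 0.96 ± 0.24 in tumor YFP- cells.

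Syk, the kinase that binds the Fcer1g motif, differed between tissues by -0.18 ± 0.14 in YFP+ and 0.03 ± 0.14 in YFP- cells. Tyrobp, the sister adaptor of Fcer1g, differed by 0.03 ± 0.15 and -0.00 ± 0.15. The kinase Lyn differed by -0.30 ± 0.21 and 0.55 ± 0.21 (limma adjusted p = 0.451 and 0.0922), and in normal pancreas YFP+ and YFP- cells differed by 0.96 ± 0.23 (limma adjusted p = 0.157). None of these 3 passed in any of the 5 comparisons. In normal pancreas 0 of 30 genes of the list passed by limma, with 8 at an unadjusted p under 0.05.

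On the inhibitory side, 21 of 23 listed receptors and phosphatases were tested, and 2 were higher and 1 lower in tumor YFP+ cells, 3 higher and 1 lower in tumor YFP- cells. The background of all genes called was 12.1% and 15.8%, near the shares of this list. The median differences were 0.07 and 0.11. Cd300lf, an inhibitory lipid-binding receptor of myeloid cells, rose from -0.48 ± 0.23 (SD, n = 3) to 2.20 ± 0.23 (n = 5) in YFP+ cells and from -1.42 ± 0.64 (n = 3) to 2.46 ± 0.34 (n = 5) in YFP- cells (limma adjusted p = 1.51e-05 and 3.24e-07). Lilrb4a, an inhibitory receptor of myeloid cells, rose by 0.76 ± 0.23 and 0.84 ± 0.23, and Pilra by 1.56 ± 0.20 in YFP- cells. The adaptor Dok2, which dampens kinase signalling, fell by 1.21 in YFP+ and by 0.80 in YFP- cells.

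Inpp5d, the phosphatase that Fcgr2b recruits, differed between tissues by -0.02 ± 0.17 in YFP+ and 0.09 ± 0.17 in YFP- cells, and Ptpn6, the phosphatase of many other inhibitory receptors, by -0.10 ± 0.17 and 0.23 ± 0.17. Neither passed in any comparison. Between YFP+ and YFP- cells 0 of 21 passed in tumors and 0 of 21 in normal pancreas by limma, with 0 and 5 at an unadjusted p under 0.05. For the interaction 0 genes of the 4 lists passed by limma, with 2 of 12 other Fc receptors, 2 of 10 Fcer1g partners, 5 of 30 activating and 3 of 21 inhibitory signalling genes at an unadjusted p under 0.05. Of all genes tested, 5.97% had such a p for the interaction, 7.64% between the normal populations and 10.3% between the tumor populations.

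**Figure D5:**
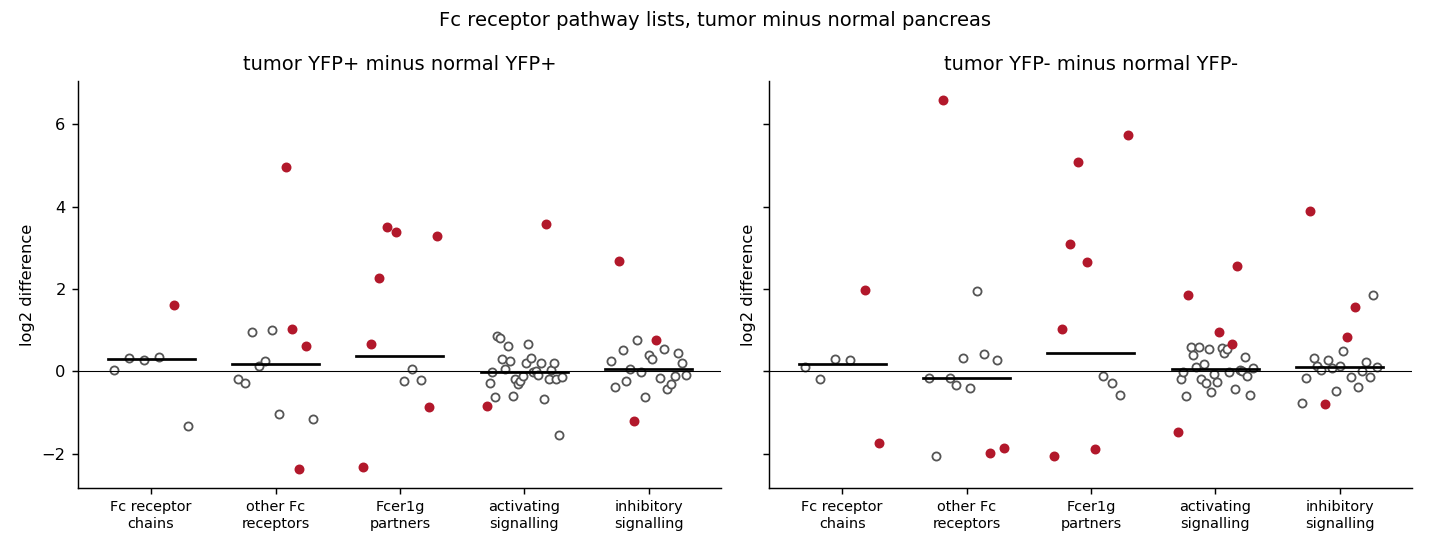
Log2 difference between tumor and normal pancreas (vertical axis) of each tested gene of 5 lists (horizontal axis), in YFP+ cells on the left and YFP- cells on the right. Each point is 1 gene, filled red where the adjusted p is under 0.05, and lines mark list medians; the largest rises are Fcrla in YFP+ cells and Fcer1a in YFP- cells, whose size depends on the background because their normal samples were not well above it.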

How the data were processed

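Expression was measured in 16 sorted samples on 1-colour Agilent arrays, with amplified cDNA labelled with Cy5. Per the submitters' processing notes the scanner files were made with Agilent Feature Extraction 11.5.1.1, and per the file headers they hold intensity values of the red channel. The deposited value table is on the log2 scale, with columns that match within 0.0069 once sorted; it served as an alternative. Outlier spots were left out, spots of a probe were averaged, and the log2 processed intensity was scaled by subtracting each array's 75th percentile. Probes well above background on at least 3 of 16 arrays were kept (30562 of 39429, 254 of them then left out for a missing value), and the brightest probe stood for a gene (24275 genes). A RefSeq table named 28330 probes through their accession, 2204 through a symbol and 174 through a synonym, and the file's own name was used for 8721. The 75th percentile was 2171 to 3386 intensity units, 64.9% to 75.4% of spots per array were well above background, and the number of arrays limits the precision.

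Means of the 4 groups were fitted with limma 3.58.1 (R 4.3.3) in 1 model, with 5 comparisons and Benjamini-Hochberg adjustment over all genes; the fit was tested on simulated data. The 6 genes, the 4 pathway lists and the marker lists were chosen with earlier results of these data known. Named from the lists are genes past an adjusted p of 0.05, at most 8 per list and comparison, and Tyrobp, Syk, Lyn, Inpp5d, Ptpn6 and B2m; the 3 genes most like each of the 6 are named by Pearson correlation. A bound ("at least") sets the mean of the bright group against the lowest signal well above background on each array of the dim group. Alternatives were another background correction, other scalings, other filters, blocks, array weights and samples left out. Leaving out both arrays of a sample number, and averaging the populations, were chosen after seeing the data.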

Additional observations from a re-analysis of the deposited data

Results flagged for a closer look

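Tumor YFP+ sample 23550 lay apart from the other 4 tumor YFP+ samples in 2 of the 6 genes. Its Fcgr4 level was 2.93 against 3.54 to 3.75 in the others, and its Fcgr2b level was 3.69 against 4.24 to 4.40. The gap to the nearest sample was 0.740 and 0.773 of the whole range of the group, above Dixon's 95% critical value of 0.710 for 5 samples. In all, 12 groups of 5 samples were tested, and chance sets apart about 1 in 20. The same sample had the lowest macrophage marker sum of its group, 7.51 against 7.86 to 8.07.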

How the results depend on the processing

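Fcgr4 was called higher in tumors under every alternative that gave a test. The differences were 1.47 to 1.76 in YFP+ and 1.84 to 2.17 in YFP- cells, samples left out included. The mean of both populations gave 1.79. Fcgrt was not as stable. In YFP+ cells 1 of the 6 genes, Fcgr4, had been called. With array weights, with a fit of the 2 groups alone and without both samples numbered 23912, Fcgrt was called as well, making 2. The mean of both populations, which tests neither one alone, also called Fcgr4 and Fcgrt. With 1 sample left out the count in YFP+ cells ran from 1 to 2, the 2 being without normal YFP- sample 23912. In YFP- cells 1 of 6 was called, where 2 had been, with scaling by the median (Fcgrt -1.53, limma adjusted p = 0.0634), with the fit of the 2 groups alone (limma adjusted p = 0.0917) and without both samples numbered 23550; with 1 sample left out the count ran from 1 to 2. Over samples left out, Fcgrt ran from -2.39 to -1.30 in YFP- cells (limma adjusted p = 0.00113 to 0.151). Between normal populations array weights gave 1 call, Fcgr1, where there had been 0. The fits with fewer samples or other weights estimate the spread anew, and the cause of the other changes was not tested. Of the 27 differences that did not pass, 19 changed sign under some alternative fitted across slides, with values there of -0.26 to 0.29. Within single slides, mostly of 1 array a group, 24 of the 27 changed sign on at least 1 slide, with values there of -1.45 to 1.06.

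Over all genes, samples with the same number deviated together at r above 0.1 in 4 of 8 pairs (r from -0.29 to 0.31), not in all. They were not treated as pairs in the main fit, and whether a number marks an animal is not known. Single genes differed in this. In tumors the YFP+ minus YFP- difference within a number was -0.17 to 0.17 for Fcgr3, with SDs between samples of 0.41 and 0.36. For Fcgrt it was -0.68 to 0.72, with SDs of 0.20 and 0.65. The main SEs between YFP+ and YFP- cells do not use the number, and can be too wide where samples of 1 number lie close. With the replicate block, which uses it, the counts of called genes stayed at 0, 0, 1, 2 and 0. Fcgrt in YFP- cells then had a limma adjusted p of 0.0255. Scaling by the median moved the median of all genes by 0.13 and 0.20 between tissues in YFP+ and YFP- cells and by 0.14 between the normal populations; normexp correction moved it by 0.21 between tissues in YFP- cells, by -0.13 between the tumor populations and by -0.12 in the interaction. Median scaling turned 1464 higher and 1472 lower calls in YFP+ cells into 1534 and 878. In YFP- cells it turned 1951 and 1880 into 2190 and 1099, where normexp correction gave 1918 and 1174. Against the median of all genes under median scaling, 0.09 and 0.04, Fcgr4 stood at 1.74 and 2.17.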
